A study of Mus musculus with 3 samples.

Results

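Krüppel-like factor genes were followed across mammary cell populations of FVB mice whose RNA had been sequenced in 3 libraries, with 1 library per group. The 10 genes described were taken by name from tables of 22378 gene models: Klf2, Klf3, Klf4, Klf5, Klf6, Klf7, Klf9, Klf10, Klf13 and Klf15. Each name stood on 1 gene model, and the tables hold 17 Klf genes in all. The LCC library (lung-colonizing cells) held mammary cells that had been injected into a vein of FVB recipients and were sorted from the dissociated lungs 1 day later. They were recognised by green fluorescent protein of FVB.GFP donor females or by the dye DDAO. In each experiment, cells of 8 donors were given in 2 injections of 2500000 cells to 4 recipients, and 15 experiments, 42 lungs and 455880 cells were pooled. The E-Int29-Hi library was made from 3 combined samples of mammary cells with intermediate surface EpCAM and high CD29 (the integrin beta-1 chain), a sort whose label says that it includes the colonizing cells. The MG library came from mammary gland labelled as intact and undissociated, also from 3 combined samples. No ages were given. LCC differs from MG by dissociation, injection, time in the lung and sorting together, and these cannot be told apart. From E-Int29-Hi it differs by injection, time in the lung, the tissue dissociated and the kind of sort together. E-Int29-Hi differs from MG by dissociation and sorting together. None of these can be told apart either. The stated aim was to find genes that differ between the 3 populations.

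Krüppel-like factors are transcription factors that bind CACCC boxes and other GC-rich sites through C2H2 zinc fingers at their C-terminal end, as the related Sp proteins do. Their N-terminal parts differ. Klf2, Klf4, Klf5, Klf6 and Klf7 are known mainly as activators, Klf3 recruits the CtBP corepressors, and Klf9, Klf10 and Klf13 bind the corepressor Sin3A. In mammary epithelium Klf4 and Klf5 have been studied most, as factors of differentiation and of growth, and several members are induced quickly by serum, stress or hormones.

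Levels are in FPKM, fragments per kilobase of gene model after correction for library size, so they can be compared between genes. Differences are log2((FPKM + 1)/(FPKM + 1)) between a pair of libraries, and a gene is called higher or lower past 2-fold on that scale. There were no replicates, so no difference has a check against the spread between replicates, no test was possible and every value describes these pooled libraries. Without read totals, the counting error behind a level is unknown. In bulk RNA, fewer cells of a type and less RNA per cell cannot be told apart. A 0 can be a failed estimate, and 6819 of the gene names were listed at 0 in LCC against 4952 for E-Int29-Hi and 3163 for MG.

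Markers of cell types set the libraries apart. Summed over 4 basal genes (Krt5, Krt14, Trp63 and Acta2), the level was 393 FPKM in LCC, against 4754 in E-Int29-Hi and 329.5 in MG. Over 4 luminal genes (Krt8, Krt18, Krt19 and Elf5) it was 3871, 272 and 1947 FPKM, and over 4 fibroblast genes (Col1a1, Col3a1, Pdgfra and Dcn) 934, 107 and 2100 FPKM. The luminal sum of LCC rested on Krt8 and Krt18, while Krt19 stood at 244 FPKM there against 488 in MG and Elf5 was lowest in LCC, at 0.964 against 2.90 and 15.6 FPKM. By the sums E-Int29-Hi was the library highest in basal and lowest in luminal and fibroblast RNA. Over 4 lung epithelium genes (Sftpc, Sftpb, Scgb1a1 and Nkx2-1) the sums were 612, 1.21 and 0.533 FPKM, so LCC also held RNA of lung epithelial genes. The LCC sum rested mostly on Scgb1a1, at 572 FPKM, with Sftpc at 36.3 and Sftpb at 3.34 FPKM. Nkx2-1 stood at 0.177 FPKM in LCC and was listed at 0 in the others. The adipocyte genes Adipoq, Plin1 and Lep stood at 1.12, 0.575 and 0.614 FPKM in MG, so fat cell markers were near or under 1 FPKM in the library labelled as intact gland.

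The upstream windows of the 3 members whose levels ranged furthest over the libraries are shown because Klf2 and Klf3 stood in the same order in the libraries and Klf13 in another. Each is the 250 bases before the gene's start, on the gene's own strand, from RefSeq on build GRCm38.p6. The submitters' notes name mm9 for the expression values, so these positions do not refer to that build. The windows lie at chr8:72318812-72319061 (Klf2, plus strand), chr5:64803271-64803520 (Klf3, plus strand) and chr7:63938916-63939165 (Klf13, minus strand). Capitals mark CACCC and GGGCGG on either strand, which can overlap each other, and the MEF2 motif.
Klf2: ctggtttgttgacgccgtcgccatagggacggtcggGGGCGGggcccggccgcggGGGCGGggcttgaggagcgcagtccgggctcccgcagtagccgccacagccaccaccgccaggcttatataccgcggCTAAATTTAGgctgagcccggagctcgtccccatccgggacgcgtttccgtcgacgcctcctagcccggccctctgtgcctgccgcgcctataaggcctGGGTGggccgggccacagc
Klf3: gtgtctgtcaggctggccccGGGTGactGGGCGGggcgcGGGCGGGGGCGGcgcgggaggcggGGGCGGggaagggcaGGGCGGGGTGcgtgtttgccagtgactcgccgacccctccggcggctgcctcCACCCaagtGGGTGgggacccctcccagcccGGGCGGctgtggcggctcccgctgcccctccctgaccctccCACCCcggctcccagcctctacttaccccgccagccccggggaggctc
Klf13: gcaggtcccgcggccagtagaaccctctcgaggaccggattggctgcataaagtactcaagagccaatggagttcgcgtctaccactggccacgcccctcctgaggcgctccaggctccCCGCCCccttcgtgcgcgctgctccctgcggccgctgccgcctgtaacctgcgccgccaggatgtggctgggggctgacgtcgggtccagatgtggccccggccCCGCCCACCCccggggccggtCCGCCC

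CACCC, the letters the family itself binds, occurred 5 times in the Klf3 window and 1 time each in those of Klf2 and Klf13. GGGCGG, the GC box, occurred 6, 2 and 3 times in the same order. Of all 32851 windows of this length, 52.0% held CACCC and 32.7% held GGGCGG, and 99.3% held fewer CACCC matches than Klf3. The windows of Klf2, Klf3 and Klf13 were 71.2%, 78.4% and 71.6% G and C, against a median of 52.4%. The MEF2 motif, searched after the Klf2 window had been read, began 118 bases before the Klf2 start and was held by 0.508% of all windows. Klf2 is known as a gene induced by the kinase Erk5 through MEF2 proteins. A match is a description of the letters and not a site shown to be bound. Windows of 5 further members were matched: CACCC and GGGCGG occurred 0 and 4 times for Klf4, 0 and 1 for Klf6, 3 and 1 for Klf7, 1 and 0 for Klf9, and 1 and 1 for Klf15. Klf5 and Klf10 had no entry.

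Klf6 and Klf4 were the most abundant members in each library. Klf6, an activator known from wound responses and as a growth inhibitor, stood at 187.6 FPKM in LCC, against 123.5 in E-Int29-Hi and 235 in MG. Klf4, a factor of epithelial differentiation and of cell cycle arrest, stood at 98.9 FPKM in LCC, against 105 in E-Int29-Hi and 191 in MG. Among genes at 1 FPKM or more, Klf6 lay at the 97.4th percentile in LCC, the 96.2nd in E-Int29-Hi and the 98.8th in MG. Klf4 and Klf6 together made up 59.7% of the summed level of the 10 genes in LCC, against 50.4% in E-Int29-Hi and 64.0% in MG. The sum itself was 480 FPKM in LCC, against 454 in E-Int29-Hi and 665 in MG. Without Klf10, whose value in E-Int29-Hi is doubtful, it was 420, 361 and 618 FPKM in the same order. MG therefore held the most RNA of these 10 genes by this measure, and LCC held 72.1% of its level, or 68.0% without Klf10. These sums are of FPKM as deposited and were not rescaled. Summed over all gene models, FPKM came to 377918 in LCC, against 330432 in E-Int29-Hi and 291133 in MG. The percentages, and the order of LCC and E-Int29-Hi, can therefore change with the scaling.

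**Figure D1:**
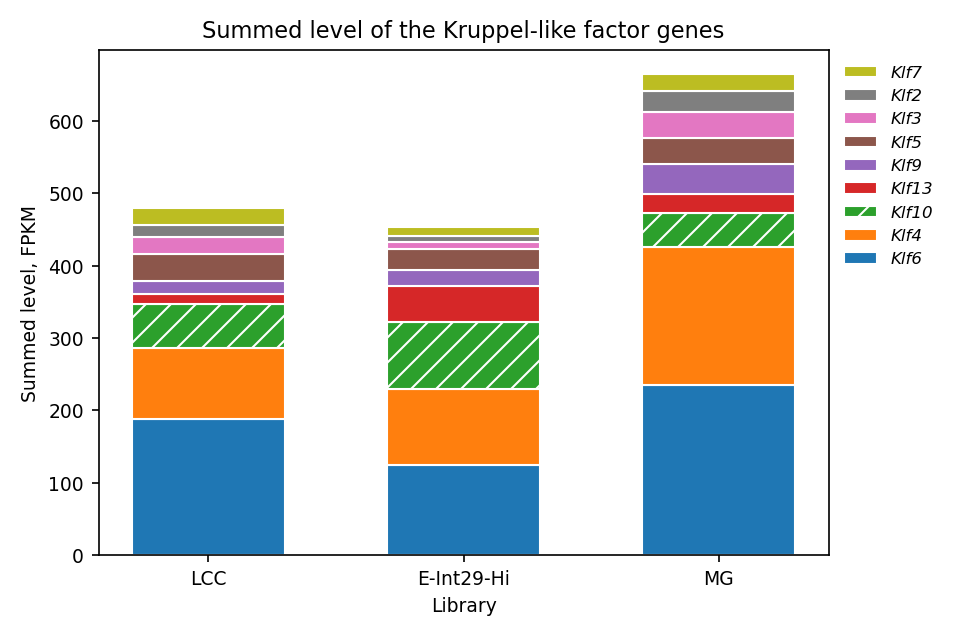
Stacked bars of the summed level (FPKM, y axis) of the Krüppel-like factor genes in LCC, E-Int29-Hi and MG (1 library each), with Klf15, at most 0.572 FPKM, left out and Klf10 hatched because its E-Int29-Hi value has status FAIL. Klf6 and Klf4 form the lower 286.5, 229 and 426 FPKM of the bars.

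Klf10, an early gene of TGF-beta signalling that binds Sin3A, stood at 59.7 FPKM in LCC, against 93.5 in E-Int29-Hi and 47.3 in MG. The E-Int29-Hi value carries the status FAIL in the deposited table, so Klf10 was kept out of all counts. Taken as listed, E-Int29-Hi was the highest library for Klf10, 1.98-fold above MG in FPKM. Smad7, a TGF-beta target that Klf10 is known to repress, stood in the same order at 70.7, 135 and 52.3 FPKM. Although a repressed target, it was thus highest where Klf10 was listed highest, and the shared order rests on the doubtful Klf10 value. Of genes at 10 FPKM or more in their highest library, 9.63% held this order. LCC and MG, whose values had status OK, differed for Klf10 by 0.33 on the log2(FPKM + 1) scale, under 2-fold.

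Klf5, known for driving growth of basal and crypt epithelium, had the narrowest range. It stood at 38.0 FPKM in LCC, against 29.0 in E-Int29-Hi and 36.5 in MG, so its highest level was 1.31-fold its lowest. Of 6793 genes at 10 FPKM or more in their highest library, 9.996% had a smaller range on the log2(FPKM + 1) scale. Klf7, a factor studied in neurons and fat cells, stood at 23.0 FPKM in LCC, against 12.5 in E-Int29-Hi and 22.9 in MG. LCC and MG were nearly level for Klf7, with E-Int29-Hi the low library.

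Klf3 and Klf2 stood in the order MG, LCC, E-Int29-Hi. Klf3 stood at 22.4 FPKM in LCC, against 9.07 in E-Int29-Hi and 35.8 in MG. Its MG level was 3.94-fold its E-Int29-Hi level. Klf2, a factor of endothelial quiescence and of resting lymphocytes, stood at 17.7 FPKM in LCC, against 9.28 in E-Int29-Hi and 29.3 in MG, a 3.16-fold span. Klf6 took the same order, which 15.0% of the 6793 genes shared. The ranges of Klf3 and Klf2, 1.87 and 1.56 on the log2(FPKM + 1) scale, exceeded those of 79.8% and 71.7% of these genes. The family as a whole did not vary more than other genes, with a median range of 1.06 over 8 members against 1.05 over all 6793 genes.

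Klf9 and Klf13, relatives that bind Sin3A and are known for responses to hormones, parted from each other. Klf9, a target of glucocorticoid and thyroid hormone receptors, stood at 17.5 FPKM in LCC, against 22.0 in E-Int29-Hi and 40.6 in MG. Klf13, known for its part in T cells and the heart, stood at 14.9 FPKM in LCC, against 49.5 in E-Int29-Hi and 26.2 in MG. LCC was the lowest library for both, whereas the highest was MG for Klf9 and E-Int29-Hi for Klf13. Klf13 was the only member in the counts that stood highest in E-Int29-Hi, an order (E-Int29-Hi, MG, LCC) held by 17.8% of the 6793 genes. Klf15, a metabolic factor of muscle, liver and fat that is induced by glucocorticoids, was listed at 0 in LCC and stood at 0.452 FPKM in E-Int29-Hi and 0.572 in MG. It passed the filter of 1 FPKM in no comparison, and no fold is given for LCC.

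**Figure D2:**
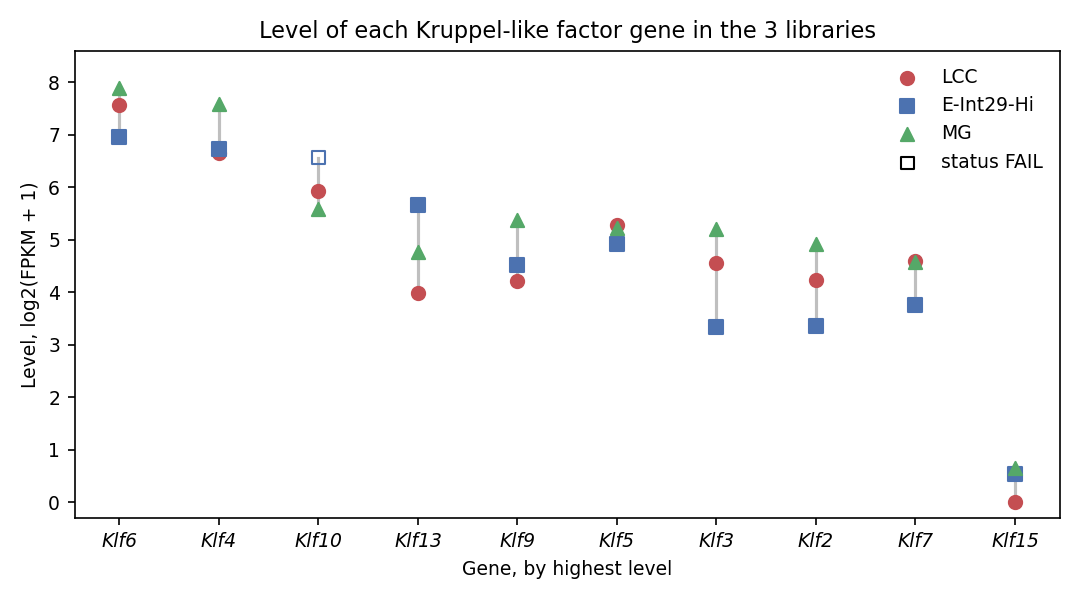
Level of each of the 10 Krüppel-like factor genes as log2(FPKM + 1) (y axis), ordered by highest level (x axis), with 1 symbol per library and grey lines spanning the range. The open square is the E-Int29-Hi value of Klf10 with status FAIL, and Klf13 is the member with a filled square at the top of its range.

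Of the 10 genes, 9 had status OK in all libraries and 8 of these reached 1 FPKM in every comparison. These 8 are the members counted below. In LCC against E-Int29-Hi, the recovered cells against the gate said to contain them, Klf3 was higher and Klf13 lower. The part of cell make-up, in which the markers set these libraries apart, was not tested. Klf3 differed by 1.21 and Klf13 by -1.67 on the log2(FPKM + 1) scale. So 1 of 8 members was called higher, where 21.2% of all 12147 genes were, and 1 of 8 lower, where 14.1% were. Klf2 (0.86), Klf7 (0.83), Klf6 (0.60) and Klf5 (0.38) stood above E-Int29-Hi by less, and Klf9 (-0.32) and Klf4 (-0.09) below it. The members' median was 0.49 against 0.26 over all genes. With each library divided by its median ratio the median gene differed by 0.01, Klf3 by 0.96, and 0 members were called higher. The same scaling turned 2571 higher and 1717 lower genes into 1825 and 2221. In TPM, each library rescaled to the same sum without mitochondrially encoded genes, Klf15 also passed the filter. Then 1 of 9 members was higher and 2 lower (Klf13, and Klf15 because it is listed at 0 in LCC), where 19.7% and 19.8% of all genes were.

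In LCC against MG, the recovered cells against the gland, Klf9 was lower, with a log2(FPKM + 1) difference of -1.17. It was the 1 of 8 members called lower, where 12.8% of all 12443 genes were, and 0 of 8 were called higher, where 10.9% were. Klf4 (-0.94), Klf13 (-0.78), Klf2 (-0.70), Klf3 (-0.65) and Klf6 (-0.32) also stood below MG, while Klf5 (0.06) and Klf7 (0.01) were level with it. The members' median of -0.67 lay below the median of 0.01 over all genes. With median ratio scaling Klf4 crossed the threshold at -1.03, which made 2 members lower, and Klf5 and Klf7 came to -0.03 and -0.07. In TPM without mitochondrially encoded genes, 6 of 9 members were lower, where 27.5% of all genes were: Klf2 (-1.09), Klf3 (-1.04), Klf4 (-1.32), Klf9 (-1.58), Klf13 (-1.18) and Klf15, listed at 0 in LCC. The call of Klf15 was fixed once it passed the filter through MG. In these units the median gene was at -0.42, and the count of lower members thus depends on the scaling.

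In E-Int29-Hi against MG, the gated cells against the gland, Klf3 (-1.87) and Klf2 (-1.56) were lower on the log2(FPKM + 1) scale. They were 2 of 8 members, where 15.5% of all 12430 genes were called lower, and 0 of 8 were called higher, where 8.99% were. Klf6 (-0.92), Klf9 (-0.86), Klf4 (-0.85), Klf7 (-0.83) and Klf5 (-0.32) stood below MG within 2-fold, and Klf13 (0.89) above it. The members' median was -0.85 against -0.23 over all genes. With median ratio scaling Klf13 passed 2-fold at 1.08 and Klf3 and Klf2 stayed past it at -1.69 and -1.38, and 1117 higher and 1930 lower genes became 1422 and 1619. In TPM without mitochondrially encoded genes, 6 of 9 members were lower, with Klf4 (-1.05), Klf6 (-1.12), Klf7 (-1.05) and Klf9 (-1.07) added to Klf2 and Klf3, where 26.5% of all genes were lower and the median gene was at -0.47. With FPKM as deposited, none of the 8 members was 4-fold apart in any comparison. Of all genes, 8.99% were for LCC and E-Int29-Hi, 3.96% for LCC and MG, and 6.57% for E-Int29-Hi and MG. In TPM without mitochondrially encoded genes, Klf3 was past 4-fold at -2.13 for E-Int29-Hi against MG. The comparisons share libraries, so their values are not independent of each other.

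**Figure D3:**
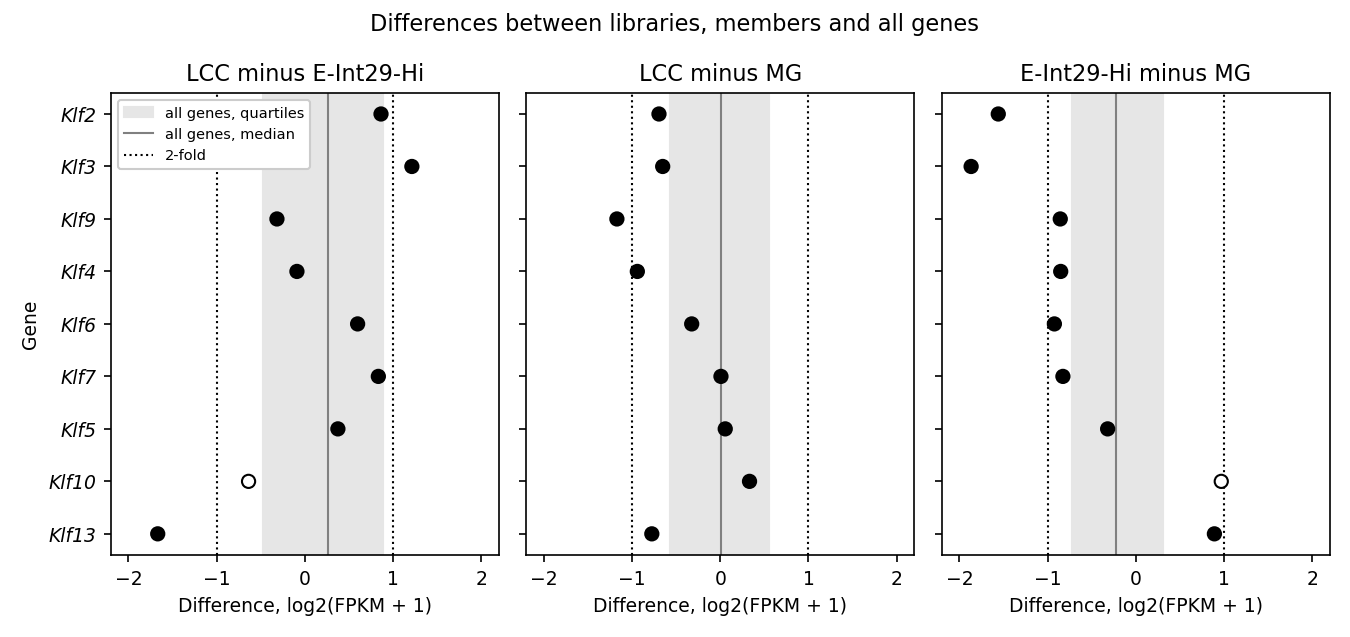
Differences on the log2(FPKM + 1) scale (x axis) of 9 members (y axis) for the 3 pairs of libraries, with the median and quartiles of all genes in grey and dotted lines at 2-fold. Open circles rest on the doubtful Klf10 value. Klf13 lies at -1.67, -0.78 and 0.89 from left to right, and Klf3 at 1.21, -0.65 and -1.87.

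Endothelial cells and leukocytes are known to express Klf2, and endothelial markers, like Klf2, stood highest in MG. Summed over Pecam1, Cdh5, Kdr, Emcn, Vwf and Tie1, the endothelial level was 105 FPKM in LCC, against 99.2 in E-Int29-Hi and 405 in MG, so LCC held 26.0% and E-Int29-Hi 24.5% of the MG sum. Against MG, 5 of these 6 genes were called lower in LCC, where 12.8% of all genes were, and 5 in E-Int29-Hi, where 15.5% were. None of the 6 was listed at 0 in any library. Klf2 stood at 60.4% of its MG level in LCC and at 31.7% in E-Int29-Hi, above each sum but not above each marker. In E-Int29-Hi, Vwf (48.9% of MG) and Emcn (41.9%) stood above Klf2, Tie1 was near it at 31.1% and the other markers stood below. In LCC all the markers stood below Klf2, with Emcn near it at 59.6%. Summed over Ptprc, Cd3e, Csf1r, Emr1 and Itgam, the leukocyte level was 51.5 FPKM in LCC, against 11.0 in E-Int29-Hi and 22.3 in MG. The LCC sum rested on Csf1r, Ptprc and Itgam, at 22.5, 15.3 and 10.1 FPKM. Cd3e, a T cell marker, stood instead in the order of Klf2, with 1.21, 0.196 and 2.46 FPKM. Emr1, a macrophage marker, was level between LCC (2.42 FPKM) and MG (2.38 FPKM). The part of these cells in the Klf2 levels was not tested.

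Genes reported as Klf2 targets stood low in E-Int29-Hi. The list holds Nos3 (endothelial nitric oxide synthase), Thbd (thrombomodulin), S1pr1 (a receptor for sphingosine 1-phosphate) and Edn1 (endothelin). In E-Int29-Hi 4 of 4 were called lower than in MG and 0 higher, where 15.5% and 8.99% of all genes were. Their median was -2.52 against -0.23 over all genes. In LCC, 3 of 4 were called lower than in MG and 0 higher, where 12.8% and 10.9% of all genes were. Thbd stood at 26.6 FPKM in LCC, against 14.3 in E-Int29-Hi and 136 in MG. Edn1, which Klf2 is known to repress, stood at 19.9, 1.29 and 12.1 FPKM, and was the member of this list with an LCC level above MG. Although a repressed target, it was lowest in E-Int29-Hi, where Klf2 was also lowest. Most of these genes are themselves endothelial, and the endothelial sum was low in the same libraries. The part of endothelial cells in these levels was not tested, nor was that of Klf2.

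**Figure D4:**
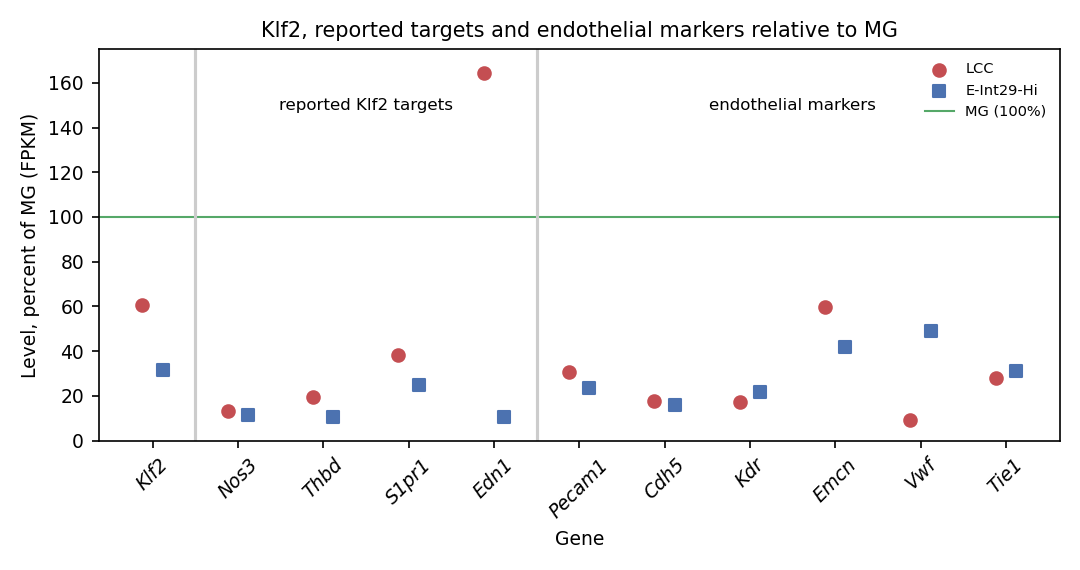
Level of Klf2, its reported targets and endothelial markers in LCC (circles) and E-Int29-Hi (squares) as a percent of the MG level in FPKM (y axis). Edn1 in LCC, at 165%, is the point above the MG line, and Klf2 lies at 60.4% and 31.7%.

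Other reported targets showed no shared direction. Of 8 genes linked to Klf4, Klf5 or Klf6 that passed the filter, 3 were higher and 1 lower in LCC than in E-Int29-Hi, where 21.2% and 14.1% of all genes were. In LCC against MG, 3 were higher and 1 lower, where 10.9% and 12.8% of all genes were. In E-Int29-Hi against MG, 1 was higher and 2 lower, where 8.99% and 15.5% of all genes were. Ccnd1, the cyclin that Klf5 is known to induce, stood at 52.7 FPKM in LCC, against 11.5 in E-Int29-Hi and 16.8 in MG, while Klf5 itself was nearly level. Plau, the plasminogen activator linked to Klf6, stood at 265, 34.3 and 108 FPKM. Tagln, a smooth muscle gene, stood at 34.5, 744 and 62.0 FPKM, highest in E-Int29-Hi as the basal markers were. In LCC it lay below MG, as Acta2 and Trp63 did, whereas Krt5 and Krt14 lay above MG. Cdkn1a, the cell cycle inhibitor p21 and a target of Klf4 and Klf6, stood at 144, 138 and 113 FPKM, and Cdh1, the E-cadherin gene linked to Klf4, at 140, 145 and 172 FPKM, both narrow ranges. Eng, an endothelial receptor gene linked to Klf6, stood at 28.2, 45.1 and 121 FPKM, highest in MG as the endothelial markers were. Of 5 genes linked to Klf10 or Klf15, 1 was higher and 2 lower in LCC than in E-Int29-Hi. For LCC against MG 1 was higher and 0 lower, and for E-Int29-Hi against MG 2 were higher and 0 lower. The shares of all genes are those given above for the same comparisons. Slc2a4, the insulin-responsive glucose transporter activated by Klf15, stood at 0.608, 11.1 and 1.56 FPKM, although Klf15 was under 1 FPKM throughout. Bcat2, an enzyme of branched-chain amino acid breakdown, stood at 14.9, 3.84 and 4.20 FPKM.

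Glucocorticoid target genes took no shared order. Of 13 such genes, 6 were higher and 3 lower for E-Int29-Hi against MG, where 8.99% and 15.5% of all genes were. In LCC against E-Int29-Hi 2 were higher and 5 lower, where 21.2% and 14.1% of all genes were. In LCC against MG 3 were higher and 2 lower, where 10.9% and 12.8% of all genes were. The metallothionein gene Mt1 stood at 412 FPKM in LCC, against 4624 in E-Int29-Hi and 560.0 in MG. Mt2, which also encodes a metallothionein, stood at 374, 3072 and 565 FPKM. Errfi1, a feedback inhibitor of EGF receptor, stood at 235, 1708 and 316 FPKM. Pdk4, a kinase that restrains pyruvate dehydrogenase, stood at 231, 254 and 11.7 FPKM and Ddit4, an mTORC1 inhibitor, at 248, 484 and 64.5 FPKM. Nfkbia, the inhibitor of NF-kappa-B, stood at 910, 141 and 397 FPKM. Fkbp5 stood at 12.5, 4.57 and 10.6 FPKM and Tsc22d3 at 12.5, 5.96 and 9.80 FPKM, both lowest in E-Int29-Hi, like Nfkbia. Per1 stood at 35.8, 75.2 and 26.8 FPKM and Zbtb16 at 0.378, 2.54 and 1.53 FPKM. These well-known targets thus parted, with Per1 and Zbtb16 highest in E-Int29-Hi, as Mt1, Mt2, Errfi1, Pdk4 and Ddit4 were. Dusp1, a phosphatase that dampens MAP kinases, stood at 109, 216 and 238 FPKM, in the order of Klf9. Glul, which encodes glutamine synthetase, stood at 62.5, 33.9 and 140 FPKM and Sgk1, a kinase, at 226, 198 and 268 FPKM. Klf9, Dusp1, Glul and Sgk1 were thus highest in MG. The receptor gene Nr3c1 was left out for its status.

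Of 12 upstream genes that passed (Erk5, MEF2, thyroid receptor and TGF-beta pathway members), 1 was higher and 2 lower in LCC than in E-Int29-Hi. Of all genes, 21.2% and 14.1% were. In LCC against MG 0 of 11 were higher and 1 lower, where 10.9% and 12.8% of all genes were. In E-Int29-Hi against MG 1 of 12 was higher and 0 lower, where 8.99% and 15.5% of all genes were. Mef2a stood at 26.9 FPKM in LCC, against 27.9 in E-Int29-Hi and 47.7 in MG. Mapk7, which encodes Erk5, stood at 11.6, 6.16 and 12.3 FPKM. Map2k5, the kinase that activates Erk5, stood at 6.05, 8.47 and 5.14 FPKM and Mef2d at 32.8, 48.4 and 35.9 FPKM. Mapk7 was lowest in E-Int29-Hi, as Klf2 was, whereas Map2k5 and Mef2d were highest there, so the pathway's genes took no shared order. Tgfbr1, a TGF-beta receptor, stood at 12.4, 35.3 and 24.4 FPKM, in the order of Klf13, while Smad3 stood at 60.8, 65.9 and 38.6 FPKM and Smad4 at 37.7, 28.2 and 32.2 FPKM.

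Few partners and relatives of the family passed 2-fold. Of 10 coregulator genes, 1, Sin3b, was called higher in LCC than in MG, where 10.9% of all genes were. In the other comparisons 0 were called, where 8.99% to 21.2% of all genes were called per direction. Sin3b stood at 90.2 FPKM in LCC, against 48.6 in E-Int29-Hi and 36.9 in MG, Ctbp2 at 64.1, 46.3 and 34.9 FPKM and Ctbp1 at 49.0, 43.2 and 39.4 FPKM. Hdac2, a histone deacetylase, stood at 44.7, 24.5 and 29.1 FPKM. Sin3a, whose product Klf9, Klf10 and Klf13 bind, stood at 8.40, 8.13 and 11.8 FPKM. Sin3b and Ctbp2 stood highest in LCC, and Sin3a highest in MG. Of 5 ubiquitin ligase genes that act on Klf proteins, 1, Smurf1, was higher in LCC than in E-Int29-Hi at 48.0 against 18.1 FPKM. Of all genes, 21.2% were higher there. In the other comparisons 0 of the 5 were called, where 8.99% to 15.5% of all genes were called per direction.

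Among the other 7 Klf genes, 3 passed the filter and 0 were called in any comparison, where 8.99% to 21.2% of all genes were called per direction. Klf16, a relative of Klf13, stood at 11.6 FPKM in LCC, against 21.7 in E-Int29-Hi and 11.5 in MG. Klf16 was highest in E-Int29-Hi, as Klf13 was, but within 2-fold. Klf11, the nearest relative of Klf10, stood at 13.4, 8.26 and 9.41 FPKM and Klf12, a relative of Klf3, at 1.88, 2.45 and 1.64 FPKM. Klf1, the erythroid factor, Klf14 and Klf17 were listed at 0 in LCC and stood at most at 0.215 FPKM elsewhere, and Klf8 at most at 0.813 FPKM. Of the 9 Sp genes, 5 passed in LCC against either library. Of these 1, Sp4, was called, lower in LCC than in E-Int29-Hi at 0.852 against 2.76 FPKM, where 14.1% of all genes were lower. Sp1 stood at 22.5 FPKM in LCC, against 19.7 in E-Int29-Hi and 21.1 in MG. Sp3 stood at 19.7, 17.1 and 30.0 FPKM. Sp1, which shares GC boxes with the family, was nearly level.

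For the 3 members with the widest ranges, the genes with the most similar profile were found by Euclidean distance between centred log2(FPKM + 1) values over the 3 libraries, among 6394 named genes at 10 FPKM or more. For Klf3 they were Ahnak (distance 0.0088, 246, 105 and 384 FPKM across LCC, E-Int29-Hi and MG), Pck2 (0.044) and Calcrl (0.064). For Klf2 they were Tbx3 (0.032, at 13.2, 6.88 and 21.5 FPKM), Med24 (0.066) and Tmed3 (0.076). For Klf13 they were Gnaq (0.035, at 7.97, 26.6 and 14.3 FPKM), Plekhm2 (0.037) and Fam193b (0.048). With 3 libraries such closeness is common: 37 genes lay within 0.25 of Klf3, 59 of Klf2 and 101 of Klf13. Among the members, Klf4 and Klf9 were nearest to each other (0.19), then Klf6 and Klf7 (0.24) and Klf2 and Klf3 (0.27), whereas Klf3 and Klf13 were farthest apart (2.30).

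The 3′ untranslated regions of the members, taken from GENCODE M21 on GRCm38, were searched on the sense strand for ATTTA, the pentamer of AU-rich elements that shorten the life of many rapidly induced mRNAs. Klf7 held the most, 18 copies in 6269 bases or 2.87 per kb, and Klf5 the fewest per length, at 0.54 per kb. Klf6 held 2.25 and Klf4 1.02 copies per kb. Of the 10 members, 6 lay above the median of 1.41 per kb over 6368 genes, so these members did not stand apart in this feature.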

How the data were processed

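The submitters' processing notes name TopHat 1.4.1, Cufflinks 1.3.0 and the build mm9, with no role, and the annotation used for counting is not named. Per the labels' protocols, poly(A) RNA was made into TruSeq libraries. The authors deposited an FPKM value and a status per gene for each library. Of 22378 gene models, 78 had no value and 22188 had status OK in all 3 libraries. The model with the highest summed FPKM was kept per name, which left 22077 names.

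A pseudocount of 1 FPKM was added before log2 differences were taken, for genes that reached 1 FPKM in either library of a pair. A gene was called past 2-fold. No test was run, since each group is 1 library. The computation was tested on simulated data. Members and gene lists were chosen with earlier results of these data known, so they give no independent support. The genes named are all members and, of each list, up to 4 with the highest FPKM and those at least 4-fold apart, and for the 3 members of widest range the 3 nearest profiles. Genes outside this rule (Fkbp5, Tsc22d3, Per1, Zbtb16, Dusp1, Sgk1, Mapk7, Map2k5, Tgfbr1, Sin3a, Klf1, Klf14, Klf17 and some markers) were chosen after their values were seen. Some list genes are not reported here. Python 3.11.15, numpy 2.4.6 and pandas 2.3.3 were used.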

Additional observations from a re-analysis of the deposited data

How the results depend on the processing

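Of 24 member differences, 22 kept their sign in every one of 9 alternatives in which they were computed, and those of Klf5 and Klf7 between LCC and MG, near 0, changed it. A pseudocount of 0.1 FPKM, no filter, a filter at 5 FPKM, genes of every status and summed gene models left every count of called members as it was. With a pseudocount of 5 FPKM, 0 members were higher in LCC than in E-Int29-Hi, since Klf3 came to 0.96. Median ratio scaling gave 0 members higher for LCC against E-Int29-Hi, 2 lower for LCC against MG and 1 (Klf13) higher for E-Int29-Hi against MG. Rescaling to TPM without mitochondrially encoded genes gave 2, 6 and 6 members lower in the same comparisons. Klf15 was among the lower members in LCC because it then passed the filter through the other libraries, which fixed its call. With the mitochondrial genes kept, an alternative chosen after seeing the data, TPM gave the same 2, 6 and 6. At a 4-fold threshold on the deposited FPKM every count of called members was 0. In TPM, Klf3 was past 4-fold for E-Int29-Hi against MG, at -2.13 without and -2.12 with the mitochondrial genes.

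Over all genes, TPM without mitochondrially encoded genes gave 2740 higher and 2754 lower (2571 and 1717 as deposited) in LCC against E-Int29-Hi, 899 and 3986 (1362 and 1597) in LCC against MG, and 1163 and 3856 (1117 and 1930) in E-Int29-Hi against MG. With a pseudocount of 5 FPKM they were 1211 and 929, 723 and 581, and 659 and 782. At 4-fold on the deposited FPKM they were 564 and 528, 166 and 327, and 323 and 494. Depth was not given, so the precision of low levels, as of Klf15 and of Sp4 and Slc2a4 in LCC, is unknown.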
